A study of Homo sapiens with 4 samples.

Results

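Interferon-stimulated genes are the genes that cells switch on when interferon reaches their surface, and 32 of them were followed here through a test of BEND3 in NTERA2 cells. They were taken by gene symbol from a list of interferon response genes that was chosen with earlier results of these data known. All 32 were among the 26364 genes counted. NTERA2 is a human embryonal carcinoma line, a single line of tumour cells that keep the expression programme of pluripotent cells and can differentiate. Messenger RNA was sequenced in 2 groups of 2 libraries. The sh60 group (replicates 1 and 2) carries the label BEND3 sh60, read here as a short hairpin RNA against BEND3, and the LacZ group (replicates 1 and 3) carries the label BEND3 LacZ, read here as its control. BEND3 is a nuclear repressor of transcription whose BEN domains bind DNA. All 4 libraries came from this line, grown in medium with serum, and the labels name no interferon, virus or other agent. How the hairpin was delivered, for how long, and whether replicates were separate cultures is not given in the sources used here, so p-values measure only the spread between these libraries, which may be technical.

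Interferons are secreted proteins that bind receptors of the JAK-STAT pathway. Type I and type III interferons activate a complex that holds STAT2 and IRF9 and binds a DNA element called ISRE, while interferon gamma acts through an element called GAS. The genes so induced encode proteins that block viral entry, sense or degrade viral RNA, restrict replication, or raise antigen presentation. Pluripotent human cells are known for a weak response to interferon and for making some of these proteins, among them IFITM proteins, without it.

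Some start regions of the genes hold the letters of elements through which interferon acts. Those of 5 genes that differed between the groups are shown, chosen because they held the ISRE letters. The windows of DDX58, IRF1 and OAS1, which also differed, held no match to the ISRE letters as spelled below. The letters are RefSeq sequence on GRCh38.p14, from 170 bases before to 10 bases after the annotated start, in the direction of transcription, and capitals mark each match to the ISRE letters (GAAA, then any 2 bases, then GAAA) on either strand. IFITM1 (chr11:313870-314049, plus strand), IFITM3 (chr11:320851-321030, minus strand) and BST2 (chr19:17405621-17405800, minus strand) were lower in sh60. ISG15 (chr1:1013327-1013506, plus strand) and IFIH1 (chr2:162318675-162318854, minus strand) were higher in sh60.
IFITM1: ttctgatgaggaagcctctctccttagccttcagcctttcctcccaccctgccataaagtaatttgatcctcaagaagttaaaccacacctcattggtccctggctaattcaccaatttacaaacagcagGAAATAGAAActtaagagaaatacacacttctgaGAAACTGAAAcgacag
IFITM3: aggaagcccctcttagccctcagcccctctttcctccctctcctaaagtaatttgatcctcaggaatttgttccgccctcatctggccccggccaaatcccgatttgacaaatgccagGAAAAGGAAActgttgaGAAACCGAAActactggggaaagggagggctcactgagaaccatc
BST2: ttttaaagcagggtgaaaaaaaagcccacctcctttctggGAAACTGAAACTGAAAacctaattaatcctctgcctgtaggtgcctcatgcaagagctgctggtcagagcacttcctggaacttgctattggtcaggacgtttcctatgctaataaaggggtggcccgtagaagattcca
ISG15: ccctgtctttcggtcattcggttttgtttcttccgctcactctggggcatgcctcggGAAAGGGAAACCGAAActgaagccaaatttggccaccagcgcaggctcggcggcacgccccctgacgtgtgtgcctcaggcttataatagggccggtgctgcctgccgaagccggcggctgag
IFIH1: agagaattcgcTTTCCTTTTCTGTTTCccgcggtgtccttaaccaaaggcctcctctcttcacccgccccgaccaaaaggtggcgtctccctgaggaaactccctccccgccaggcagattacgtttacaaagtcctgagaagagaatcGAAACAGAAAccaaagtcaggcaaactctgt
By that choice each of the 5 windows held the ISRE letters, at 2 or 3 positions, in genes of both directions. In BST2 and ISG15 the 2 matches overlapped each other, as did 2 of the 3 in IFIH1.

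RefSeq windows of 300 bases, from 250 before the start to 50 after it, were matched by symbol for 25 of the 32 genes. IRF7, IFITM2, IFIT2, OAS2, OASL, MX2 and TRIM22 had no entry. The ISRE letters were present in 16 of the 25 windows (64.0%), against 1255 of 35116 windows of the same length over all genes (3.57%). The GAS letters (TTC, any 3 bases, GAA) were present in 7 of the 25 (28.0%), against 7.66% of all windows. By direction in sh60, the ISRE letters were in 2 of 4 windows of genes called higher, 3 of 4 of genes called lower, 8 of 13 of genes that did not pass the test and 3 of 4 of genes too low to test. The GAS letters overlapped ISRE letters in IFITM1, BST2 and IFI27. A match says only that the letters are there, and it is not a measured binding site. A missing match does not show that an element is absent, because only a spacer of 2 bases was searched. The OAS1 window, for example, holds gaaacgaaa, with a shorter spacer.

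**Figure D1:**
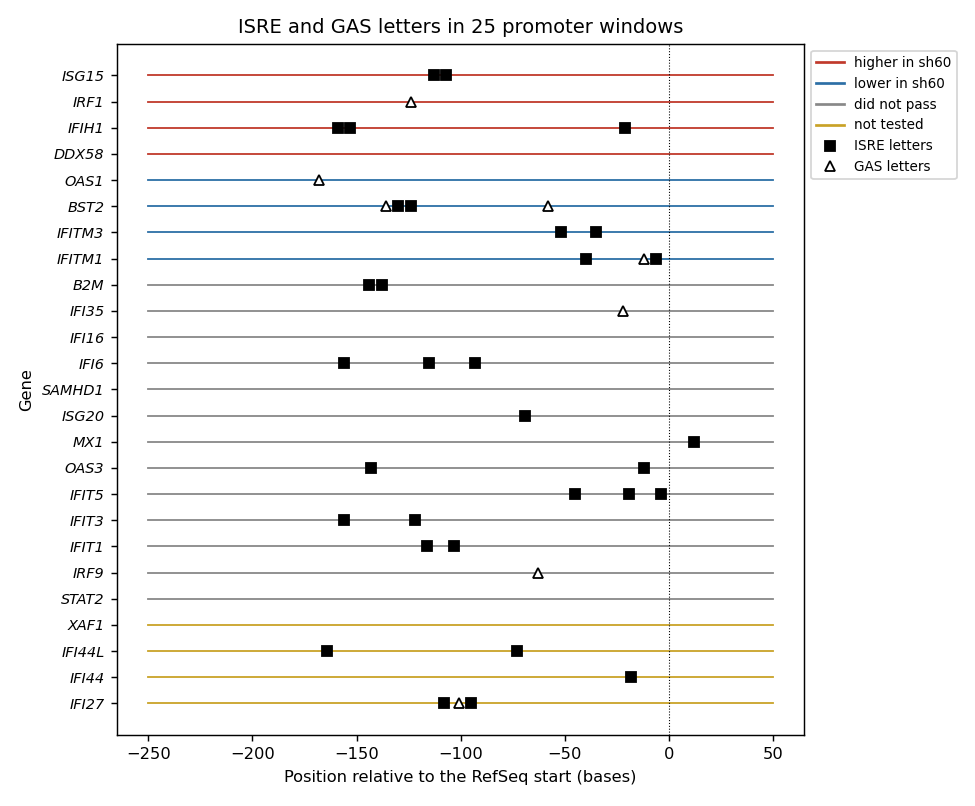
Position of the ISRE letters (filled squares) and GAS letters (open triangles) in the windows of 25 genes; each line is 1 gene's window, the x axis is the distance in bases from the RefSeq start, and the colour gives the gene's direction in sh60. ISRE letters appear in lines of every colour, in 16 of the 25 windows.

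Library totals were 33798665 and 44788461 counts in sh60 replicates 1 and 2, and 42538561 and 30338285 in LacZ replicates 1 and 3. BEND3 measured 55.7 and 52.0 CPM (counts scaled by library size) in sh60 replicates 1 and 2, against 68.8 and 79.3 CPM in LacZ replicates 1 and 3. Its fold change on the log2 scale was -0.46 by edgeR's quasi-likelihood test (SE 0.098, adjusted p = 0.00168), which no longer passed without LacZ replicate 3 (adjusted p = 0.153). All 12 embryonal carcinoma markers were tested, of which 1 was higher in sh60 (SOX2, log2 fold change 0.31), 5 were lower and 6 did not pass, with POU5F1 at 910 to 1016 CPM over the 4 libraries. The lower ones were DNMT3B (-0.72), TDGF1 (-0.49), LIN28B (-0.45), SALL4 (-0.31) and NANOG (-0.25). The labels also call the line a lung carcinoma, and of 10 lung epithelial markers 7 were too low to test. SFTPB and SCGB1A1 were at 0 and SCGB3A2 was the highest at 13.3 to 16.2 CPM. Of the 3 tested, FOXJ1 was higher in sh60 (log2 fold change 1.14, edgeR adjusted p = 0.0402) and 2 did not pass. Among 14 leukocyte markers PTPRC and MS4A1 were at 0 and the list summed to 6.11 and 6.80 CPM in sh60 libraries, against 6.24 and 6.02 CPM in LacZ libraries. Of the 6 tested, LYZ was higher in sh60 (log2 fold change 1.31, edgeR adjusted p = 0.0439) and 5 did not pass. Of 10 fibroblast markers, 9 were tested, 4 were higher and 2 lower, and none was at 0. They summed to 929 and 1093 CPM in sh60, against 544 and 447 CPM in LacZ. This came mostly from COL1A1 and COL1A2, 5.46-fold and 4.39-fold higher in sh60. Without the 3 collagen genes the sums were 298 and 323 CPM in sh60 and 366 and 342 CPM in LacZ. Of the 6 tested markers left, LUM (3.05-fold) and POSTN (1.97-fold) were higher in sh60. THY1 and PDGFRA were lower, at 0.788 and 0.812 of their LacZ levels, and 2 did not pass. THY1, the most abundant of these, averaged 182 CPM in sh60 and 231 CPM in LacZ and weighed most in these sums. Beside these marker counts, 28.8% of all 16040 tested genes were called (15.8% higher and 13.0% lower). The part of these markers in the results below was not tested.

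The 32 genes spanned silence to strong expression in both groups, and a few genes carried nearly all of the signal. Divided by exon length, the level averaged 187 ± 23.3 RPKM for IFITM1 and 182 ± 27.5 RPKM for IFITM3 in sh60 libraries, against 302 ± 35.8 and 321 ± 25.1 RPKM in LacZ libraries (SD, n = 2 each; RPKM is CPM per kilobase of exon). The means of IFITM1 and IFITM3 lay within 1 SD of each other in each group. B2M and BST2 followed, at 136 ± 5.97 and 71.5 ± 1.77 RPKM in sh60 and at 116 ± 10.5 and 101 ± 13.0 RPKM in LacZ, where the difference between them was within their spread. IFITM1, IFITM3, B2M and BST2 together made up 82.9% and 84.6% of the summed level of the 32 genes in sh60 replicates 1 and 2, and 88.9% and 89.5% in LacZ replicates 1 and 3.

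Below them came IFI16, IFITM2, MX2 and TRIM22. TRIM22 stood the fifth in the order of sh60 levels (33.1 ± 1.47 RPKM) and the eighth in the order of LacZ levels (9.77 ± 1.52 RPKM). IFI16 and IFITM2 had 23.7 ± 3.28 and 14.5 ± 2.99 RPKM in sh60, and 24.4 ± 3.03 and 30.3 ± 1.76 RPKM in LacZ. STAT2, SAMHD1, IRF9, IRF1, DDX58, ISG15 and IFI6 lay between 0.949 and 5.67 RPKM in all 4 libraries. Many textbook reporters of an interferon response were near silence. In mean CPM over the 4 libraries 11 of the 32 genes were under 1, 10 were at 1 to under 10, 8 were at 10 to under 100, and 3 were at 100 or more. OASL had 0 counts in every library, which allows up to 0.0663 to 0.0998 CPM by the limit of 3 counts (counting error only), and IFI44 had 2 counts at most.

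**Figure D2:**
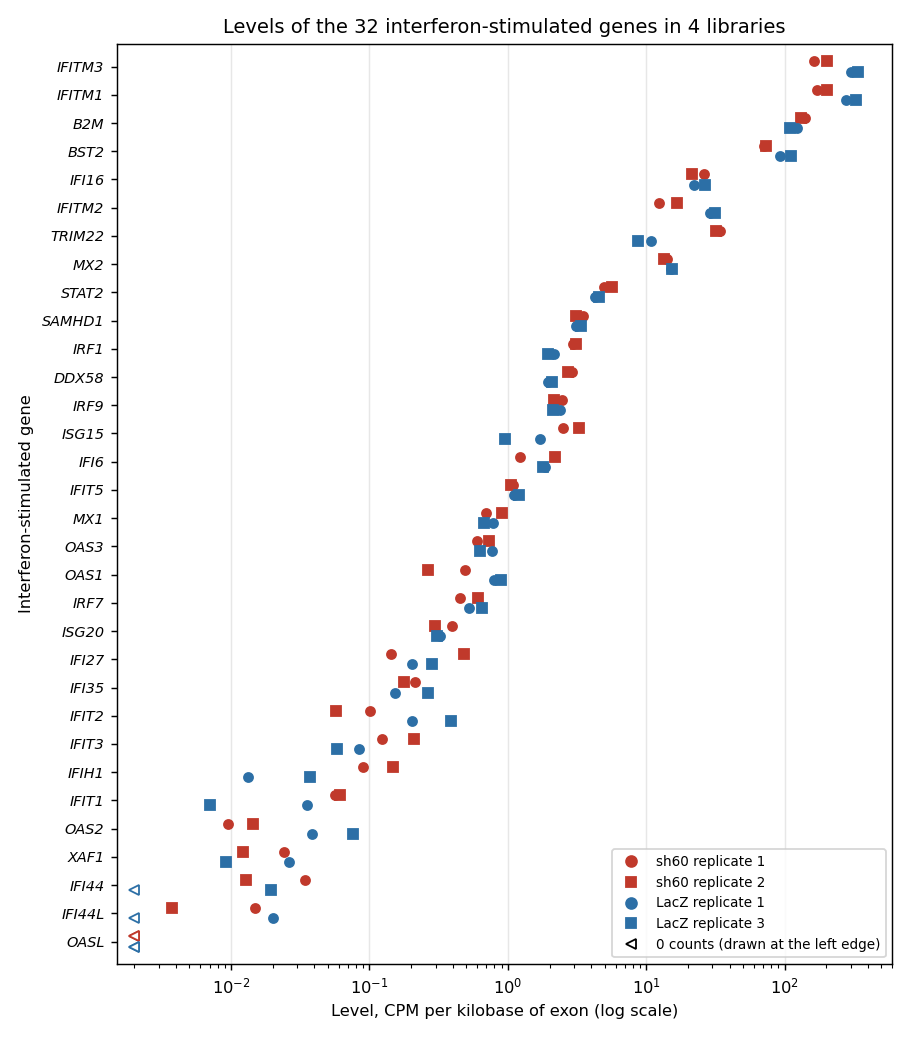
Level of each of the 32 genes in each library, as CPM per kilobase of exon on a log axis, with sh60 libraries in red drawn above LacZ libraries in blue. IFITM3 and IFITM1 stand at the top and OASL, with 0 counts in every library, at the bottom; TRIM22 has the sh60 points well to the right of the LacZ points.

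Between the groups the 32 genes moved in both directions. Of 26 genes with enough counts to test, 5 were higher in sh60 (TRIM22, IFIH1, DDX58, IRF1 and ISG15), 6 were lower (IFITM1, IFITM2, IFITM3, BST2, IFIT2 and OAS1) and 15 did not pass at an adjusted p of 0.05. This is 42.3% called, beside 28.8% of all 16040 tested genes (15.8% higher and 13.0% lower). Because the list was chosen with earlier results of these data known, no conclusion is drawn from the difference in shares. Of all called genes 54.9% were higher, and 44.1% once trends with GC content and length were removed, where the 32 genes gave 6 higher and 7 lower. The median log2 fold change of the 26 was -0.012, with 13 positive and 13 negative values, beside -0.0042 over all tested genes. The sh60 and LacZ libraries did not overlap for 17 of the 26 genes, beside 64.4% of all tested genes. IFIH1, IFIT1 and IFIT3 entered the test only because both sh60 libraries had enough counts. Among the 21 genes with enough counts in both libraries of both groups, 4 were higher and 5 were lower. Without LacZ replicate 3, 3 of the members were higher and 4 lower, and without LacZ replicate 1, 3 were higher and 7 lower. DESeq2 gave 3 higher and 5 lower. In bulk RNA, fewer cells making a transcript and less transcript per cell cannot be told apart.

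**Figure D3:**
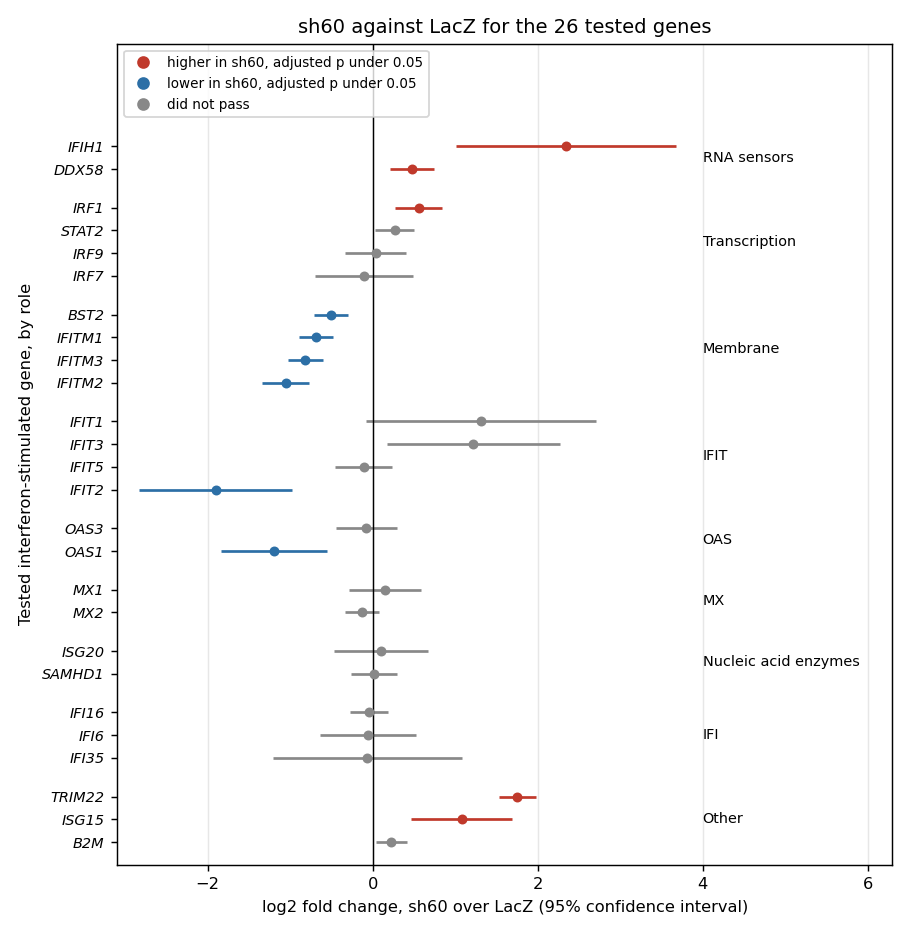
Log2 fold change, sh60 over LacZ, of the 26 tested genes, ordered by role, with 95% confidence intervals from the edgeR fit. The membrane, OAS and IFI genes all lie left of 0, and the RNA sensors, nucleic acid enzymes and the group Other right of 0. IFIH1 and TRIM22 lie farthest to the right and IFIT2 farthest to the left.

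IFITM1, IFITM2, IFITM3 and BST2, grouped here as membrane proteins, were all called lower in sh60, beside 13.0% of all tested genes. No other role had every gene called lower. The roles were assigned here and 3 of these 4 genes are close copies, so the count does not speak for membrane proteins in general. The 2 tested OAS genes and the 3 tested IFI genes also had negative log2 fold changes. IFITM1, IFITM2 and IFITM3 encode small membrane proteins that hinder the fusion of viruses with the cell, and lie side by side on chromosome 11. IFITM1 (313991 to 315272, hg19) measured 122 and 146 CPM in sh60 replicates 1 and 2, against 198 and 235 CPM in LacZ replicates 1 and 3. Both sh60 libraries were below both LacZ libraries, with a log2 fold change of -0.69 (SE 0.099, edgeR adjusted p = 4.56e-05). IFITM3 (319673 to 320914) measured 109 and 135 CPM in sh60, against 202 and 226 CPM in LacZ, again without overlap (log2 fold change -0.82, SE 0.099, edgeR adjusted p = 7.42e-06). IFITM2 (308107 to 309410) was far less abundant and had 9.04 and 12.1 CPM in sh60, against 21.2 and 23.0 CPM in LacZ. Its sh60 level was 0.482 of that in LacZ (log2 fold change -1.05, SE 0.14, edgeR adjusted p = 1.38e-05). All 3 calls held in every one of the 12 alternative analyses.

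Close copies share sequence, and reads that fit several places were left out of the counts. Of all windows of 50 bases in the longest GENCODE transcript, 42.3% in IFITM1, 15.8% in IFITM2 and 20.3% in IFITM3 also occur in a transcript of another gene, mostly in the other IFITM genes. The read length is not given in the sources used here, and the levels of the 3 genes relative to each other are uncertain. With the counts of the 3 genes summed into 1 row, the sh60 level was 0.588 of that in LacZ (log2 fold change -0.77, SE 0.097, edgeR adjusted p = 1.10e-05). The ratio of IFITM2 to IFITM3 counts was 0.0832 and 0.0901 in sh60 replicates 1 and 2, against 0.105 and 0.102 in LacZ replicates 1 and 3. That of IFITM1 to IFITM3 was 1.12 and 1.08 in sh60, against 0.980 and 1.04 in LacZ. Within each ratio the groups did not overlap, and neither difference was tested.

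BST2 encodes tetherin, which holds budding virus particles on the cell surface (chromosome 19, 17513748 to 17516457). It had 71.6 and 74.2 CPM in sh60, against 94.0 and 113 CPM in LacZ. The sh60 libraries were close to each other and below both LacZ libraries (log2 fold change -0.50, SE 0.097, edgeR adjusted p = 0.000750). Without LacZ replicate 3 the value was -0.37 and no longer passed (adjusted p = 0.127).

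**Figure D4:**
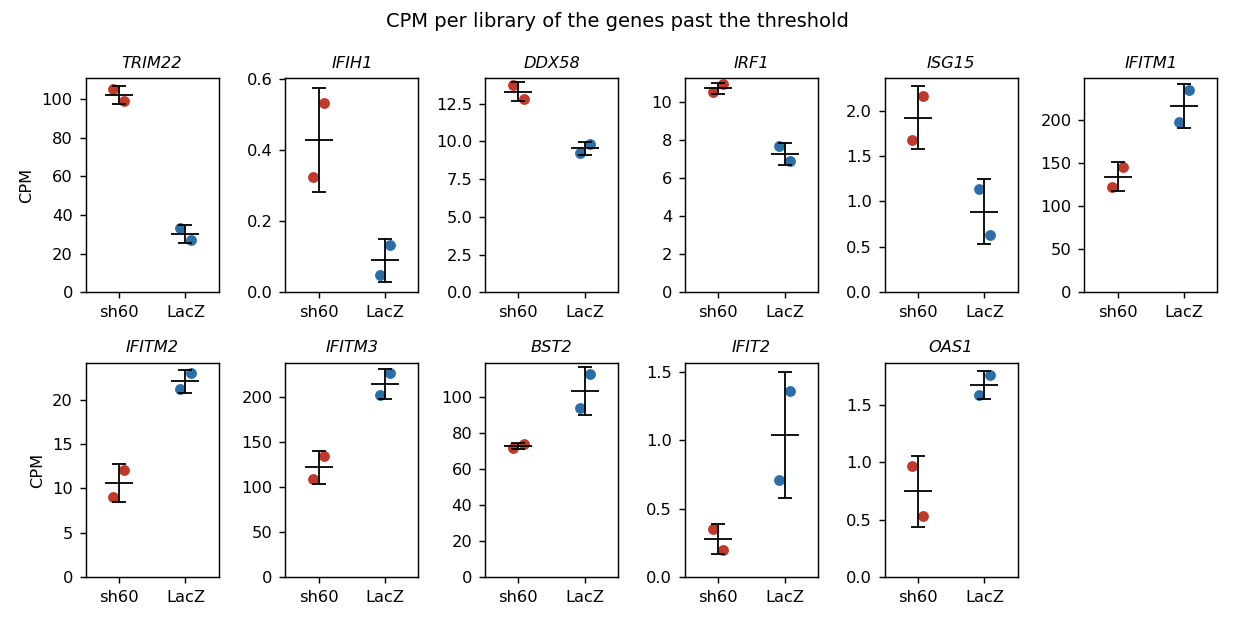
CPM in each library (points) of the 11 genes past the threshold, with the mean and SD of each group of 2 libraries (bars), on axes that start at 0; sh60 stands left of LacZ. In the first 5 panels both sh60 points lie above both LacZ points, and in the other 6 below them.

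Both RNA sensors were called higher in sh60, beside 15.8% of all tested genes, although IFIH1 entered the test only through the sh60 libraries. DDX58 encodes RIG-I and IFIH1 encodes MDA5, helicases that bind foreign double-stranded RNA in the cytoplasm and signal towards interferon production. DDX58 (chromosome 9, 32455300 to 32526322) had 13.7 and 12.8 CPM in sh60, against 9.21 and 9.85 CPM in LacZ. The groups did not overlap and the level was 1.40-fold higher (log2 fold change 0.48, SE 0.13, edgeR adjusted p = 0.00828). Without LacZ replicate 1 this call was lost (adjusted p = 0.0917). IFIH1 (chromosome 2, 163123589 to 163175218) was close to silent, with 11 and 24 counts in sh60 replicates 1 and 2, against 2 and 4 counts in LacZ replicates 1 and 3. From the pooled counts the sh60 level was 5.31 times that in LacZ, with an exact interval of 2.21 to 15.4 that covers counting error only. Its log2 fold change by edgeR, 2.34 (SE 0.64, adjusted p = 0.00960), was no longer past the threshold without LacZ replicate 1 (adjusted p = 0.140) and without sh60 replicate 2 (adjusted p = 0.146).

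Of the 4 transcription factors, IRF1 was higher in sh60 and STAT2, IRF9 and IRF7 did not pass. IRF1 (chromosome 5, 131817301 to 131826465), a factor induced most of all by interferon gamma, had 10.5 and 11.0 CPM in sh60, against 7.69 and 6.89 CPM in LacZ. This was 1.47-fold higher (log2 fold change 0.56, SE 0.14, edgeR adjusted p = 0.00476), and not past the threshold without LacZ replicate 3 (adjusted p = 0.0678). STAT2 had 22.3 and 25.8 CPM in sh60, against 19.4 and 20.8 CPM in LacZ (log2 fold change 0.26, SE 0.11, edgeR adjusted p = 0.0908). It passed without sh60 replicate 1 (adjusted p = 0.0120) and with GC and length trends removed (adjusted p = 0.0489). IRF9, the DNA-binding partner of STAT2, had 4.14 and 3.62 CPM in sh60, against 3.97 and 3.56 CPM in LacZ, and its 95% interval ran from -0.34 to 0.41 on the log2 scale. IRF7, which amplifies type I interferon production, was at 0.969 to 1.40 CPM over all libraries with overlapping groups.

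The IFIT genes, whose proteins bind viral RNA ends and block its translation, lie together on chromosome 10, and 1 of the 4, IFIT2, passed the test. IFIT2 (91061706 to 91069033) had 12 and 9 counts in sh60, against 30 and 41 counts in LacZ. It had enough counts for the test in 1 sh60 library and in both LacZ libraries, so its entry depended on LacZ. The groups did not overlap, and the log2 fold change was -1.90 (SE 0.44, edgeR adjusted p = 0.00331). This call was lost without LacZ replicate 3 (adjusted p = 0.0599) and without sh60 replicate 2 (adjusted p = 0.0609). IFIT3, its neighbour, had 12 and 27 counts in sh60 against 10 and 5 in LacZ, which stayed short of the threshold at a log2 fold change of 1.22 (SE 0.50, edgeR adjusted p = 0.0750). IFIT1 had 9 and 13 counts in sh60 against 7 and 1 in LacZ (log2 fold change 1.31, SE 0.66, edgeR adjusted p = 0.155). IFIT5 had the highest level per length of the 4, at 1.05 to 1.20 RPKM over all libraries, and did not pass (95% interval -0.46 to 0.24 on the log2 scale). Whether IFIT2 differs from its neighbours was not tested.

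The OAS enzymes make the messenger 2-5A that activates the nuclease RNase L. OAS1 (chromosome 12, 113344739 to 113357712) had 0.969 and 0.530 CPM in sh60, against 1.59 and 1.76 CPM in LacZ. Both sh60 libraries were below both LacZ libraries (log2 fold change -1.19, SE 0.31, edgeR adjusted p = 0.00675), and the call was lost without sh60 replicate 2 (adjusted p = 0.116) and by DESeq2 (adjusted p = 0.0542). OAS3, next to it, had 3.96 and 4.88 CPM in sh60 against 5.13 and 4.19 CPM in LacZ, with overlapping groups (edgeR adjusted p = 0.789). OAS2 had 2 and 4 counts in sh60 against 10 and 14 in LacZ and was removed by the count filter. Without that filter it was lower (log2 fold change -2.12, edgeR adjusted p = 0.0342). IFI27, IFI44, IFI44L and XAF1, also removed by the filter, did not pass in that setting (edgeR adjusted p from 0.680 to 0.977). OASL, related to the OAS enzymes but without the enzyme activity, was the gene at 0 throughout.

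MX1 and MX2, dynamin-like GTPases that trap viral nucleocapsids, stood at different levels, and neither passed the test between the groups. MX2 had 13.8 ± 0.503 RPKM in sh60 and 15.2 ± 0.0724 RPKM in LacZ, and MX1, usually taken as a reporter of interferon, 0.801 ± 0.157 RPKM in sh60 and 0.726 ± 0.0748 RPKM in LacZ (SD, n = 2 each). MX2 was 42.1 and 39.9 CPM in sh60 against 44.7 and 45.0 CPM in LacZ, without overlap but short of the threshold (log2 fold change -0.13, SE 0.096, edgeR adjusted p = 0.345). It passed with GC and length trends removed (adjusted p = 0.0369). MX1 overlapped between the groups (edgeR adjusted p = 0.648). The enzymes ISG20, an RNA exonuclease, and SAMHD1, which depletes the nucleotides that viral DNA synthesis needs, also overlapped. SAMHD1 had 11.1 and 9.92 CPM in sh60 against 9.92 and 10.8 CPM in LacZ, and ISG20 was at 1.15 to 1.53 CPM over all libraries.

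None of the 6 IFI genes passed, and 3 of them were too low to test. IFI16, a nuclear sensor of DNA, was well expressed, with 75.6 and 62.1 CPM in sh60 against 64.7 and 77.1 CPM in LacZ. The spread within each group was wider than the difference between their means, and the 95% interval was -0.27 to 0.19 on the log2 scale. IFI6, a mitochondrial protein, had 1.06 and 1.88 CPM in sh60 against 1.59 and 1.53 CPM in LacZ. IFI35 had 9 and 10 counts in sh60 against 8 and 10 in LacZ. IFI27, often among the most strongly induced of all interferon-stimulated genes, had 4 and 18 counts in sh60 against 7 and 7 in LacZ. IFI44 and IFI44L had 5 counts or fewer in every library.

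The largest change among the genes with a mean of 1 CPM or more was that of TRIM22. TRIM22 encodes a RING-domain protein of the TRIM family that restricts viruses and is known to be induced by interferon and by p53. On chromosome 11 (5710817 to 5732093) it had 105 and 99.0 CPM in sh60, against 33.5 and 26.9 CPM in LacZ. Both sh60 libraries were above both LacZ libraries, 3.37-fold on average (95% interval 2.88 to 3.95; log2 fold change 1.75, SE 0.11, edgeR adjusted p = 6.51e-09). It passed in all 12 alternatives, with log2 fold changes from 1.61 to 1.93.

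ISG15 encodes a ubiquitin-like protein that is attached to other proteins during an interferon response (chromosome 1, 948847 to 949919). It had 57 and 98 counts in sh60 replicates 1 and 2, against 48 and 19 counts in LacZ replicates 1 and 3, which is 1.67 and 2.17 CPM in sh60 and 1.14 and 0.632 CPM in LacZ. The groups did not overlap, with LacZ replicate 3 the lowest of all (log2 fold change 1.08, SE 0.29, edgeR adjusted p = 0.00927). The call was lost without LacZ replicate 3 (adjusted p = 0.0831), without sh60 replicate 2 (adjusted p = 0.106) and by DESeq2 (adjusted p = 0.0577). B2M, the light chain of MHC class I, had 138 and 129.6 CPM in sh60 against 122 and 107 CPM in LacZ. These did not overlap but the test was not passed (log2 fold change 0.23, SE 0.089, edgeR adjusted p = 0.0670), and it was passed with library totals (adjusted p = 0.0388), without sh60 replicate 1 (0.0499) and without sh60 replicate 2 (0.00945). XAF1, which promotes apoptosis, had 1 to 4 counts in every library.

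Several of the genes lie in clusters, so the genes within 100 kb of each cluster were read from the same files, a window chosen after the values were seen. Around the IFITM genes, 7 of 11 neighbours were tested, of which 2 were higher and 2 lower, where 28.8% of all tested genes were called. ATHL1, on one side, had a log2 fold change of -0.50 (SE 0.12, edgeR adjusted p = 0.00322), and B4GALNT4, on the other, averaged 69.8 CPM in sh60 and 85.0 CPM in LacZ (-0.28, edgeR adjusted p = 0.0321). RIC8A and PKP3, farther out, were higher (0.30 and 0.96). The calls of ATHL1, B4GALNT4 and RIC8A were lost without LacZ replicate 3 (adjusted p = 0.0871, 0.401 and 0.361), and those of B4GALNT4 and RIC8A also without LacZ replicate 1 (0.181 and 0.107). That of PKP3 was lost by DESeq2 (adjusted p = 0.197), by limma-voom (0.0759), without sh60 replicate 2 and without LacZ replicate 1.

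Beside TRIM22, 2 of 8 neighbours were tested, and both are TRIM genes. TRIM6 averaged 24.9 CPM in sh60 and 19.4 CPM in LacZ (log2 fold change 0.35, edgeR adjusted p = 0.0251), and TRIM5, which starts just before TRIM22 on the other strand, averaged 42.4 CPM in sh60 and 39.7 CPM in LacZ (0.09, edgeR adjusted p = 0.509). The TRIM6 call was lost without LacZ replicate 1 (adjusted p = 0.0882), without LacZ replicate 3 (0.269) and without sh60 replicate 1 (0.0915). Of 3 tested neighbours of the OAS genes 2 were lower, RPH3A (log2 fold change -1.79, edgeR adjusted p = 6.37e-06) and DTX1 (-0.44, edgeR adjusted p = 0.0284). RASAL1 did not pass (edgeR adjusted p = 0.436). Near the IFIT genes SLC16A12 was lower (-0.76, edgeR adjusted p = 0.00198) and LIPA did not pass (edgeR adjusted p = 0.962). The DTX1 call was lost by DESeq2 (adjusted p = 0.0843) and without LacZ replicate 1, LacZ replicate 3 or sh60 replicate 1. Among 3 tested neighbours of the MX genes 2 were lower, and the 1 tested neighbour of IFI44 did not pass. Over all tested genes 28.8% were called.

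**Figure D5:**
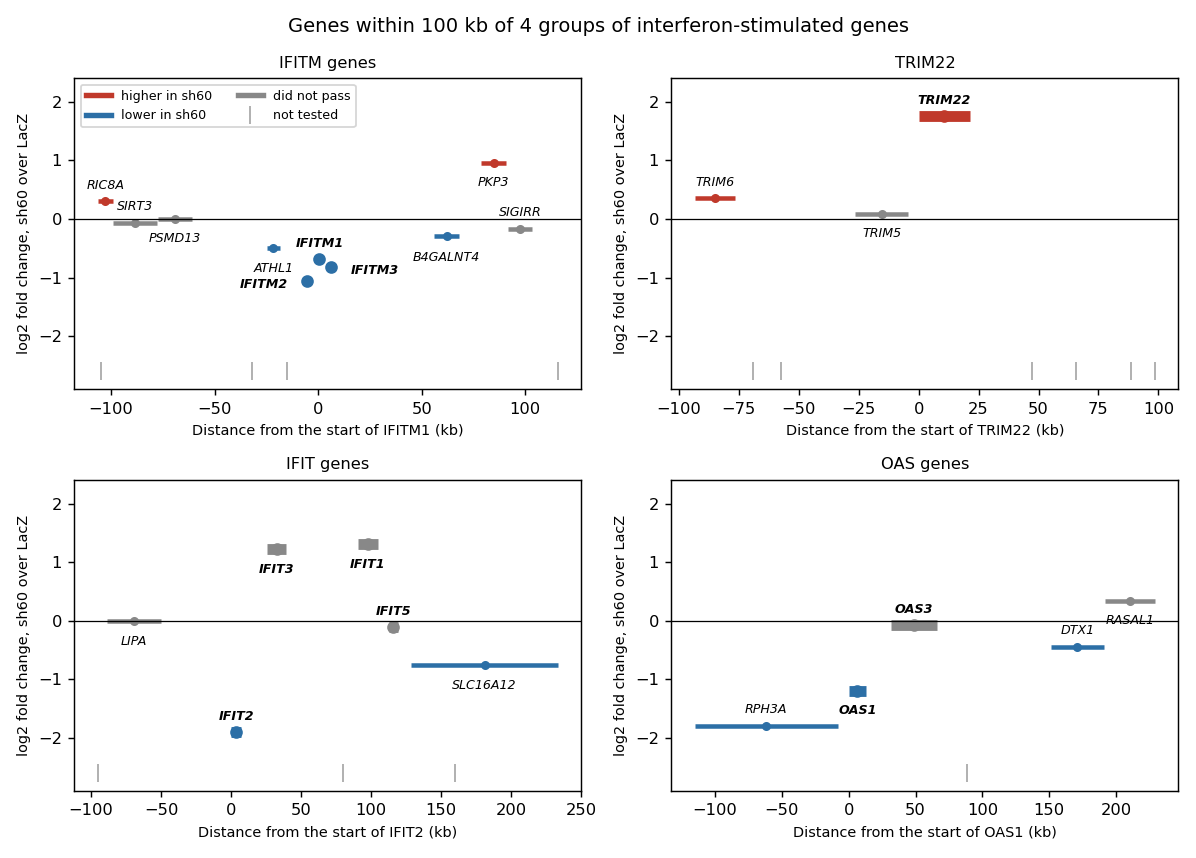
Log2 fold change, sh60 over LacZ, against distance in kilobases along the chromosome for genes within 100 kb of the IFITM, TRIM22, IFIT and OAS genes; each bar spans 1 gene, thick bars and bold names are the interferon-stimulated genes, and grey ticks are genes too low to test. The 3 IFITM genes sit together below 0, TRIM22 stands above its tested neighbours, and IFIT2 lies apart from IFIT1 and IFIT3.

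The rest of the pathway was read through 6 further lists with 129 genes, also chosen with earlier results of these data known. No interferon gene was expressed at a measurable level. Of 22 genes for type I, II and III interferons, 19 had 0 counts in every library, none had more than 2 counts in any library, and none could be tested. The receptor and JAK-STAT genes were all expressed. Of 11, 4 were higher and 1 lower in sh60, a share of 45.5% beside 28.8% of all tested genes. IFNAR2, the signalling chain of the type I interferon receptor, had 30.9 and 29.6 CPM in sh60 against 18.2 and 19.5 CPM in LacZ (log2 fold change 0.68, SE 0.11, edgeR adjusted p = 0.000102). IFNAR1, its partner chain, had 61.0 and 57.4 CPM in sh60 against 43.6 and 37.6 CPM in LacZ (log2 fold change 0.54, SE 0.10, edgeR adjusted p = 0.000548), a call lost without LacZ replicate 3 (adjusted p = 0.0672). JAK1, a kinase of these receptors, was 1.22-fold higher, which was lost without either LacZ library (adjusted p = 0.0846 without replicate 1 and 0.530 without replicate 3). Without LacZ replicate 3 the list held 1 higher and 0 lower genes, without LacZ replicate 1 it held 2 and 0, and without sh60 replicate 2 it held 4 and 2.

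Of 18 genes that carry the signal from sensors of nucleic acids, 13 were tested, 3 were higher and 1 lower. This is 30.8% called, beside 28.8% of all tested genes. The counts changed when LacZ replicate 3 or sh60 replicate 2 was left out. TICAM1, the adaptor of the RNA receptor TLR3, had an average of 2.99 CPM in sh60 against 1.25 CPM in LacZ (log2 fold change 1.26, SE 0.22, edgeR adjusted p = 0.000373). IKBKE, a kinase that activates IRF3, had an average of 12.5 CPM in sh60 against an average of 19.2 CPM in LacZ (log2 fold change -0.62, SE 0.12, edgeR adjusted p = 0.000516). Both passed in all 12 alternatives. TRAF3 and TRIM25, ubiquitin ligases of the same pathway, were 1.40-fold and 1.28-fold higher, and neither passed without LacZ replicate 3 (adjusted p = 0.0870 and 0.140). TRIM25 failed in 6 of the 12 alternatives, each library's removal among them.

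Of 9 genes for ISG15 conjugation and for feedback on the pathway, 11.1% were called, beside 28.8% of all tested genes. HERC5, the main ligase that attaches ISG15, was higher and 8 did not pass. It had 30.6 and 30.3 CPM in sh60 against 22.4 and 20.2 CPM in LacZ (log2 fold change 0.51, SE 0.11, edgeR adjusted p = 0.00139), and did not pass without LacZ replicate 3 (adjusted p = 0.0700). Of 52 further interferon-stimulated genes, 37 were tested, 7 were higher and 9 lower, a share of 43.2% beside 28.8% of all tested genes. Without LacZ replicate 3, 5 were lower, and among genes with at least 1 CPM in 2 libraries 4 were higher. GBP3, a guanylate-binding GTPase, had 33 and 48 counts in sh60 against 10 and 4 in LacZ (log2 fold change 2.38, SE 0.42, edgeR adjusted p = 0.000332), and entered the test only through the sh60 libraries. SP100, a component of PML nuclear bodies, had 4.99 and 5.46 CPM in sh60 against 2.92 and 1.90 CPM in LacZ, 2.13-fold higher (edgeR adjusted p = 0.000472). DDX60L, a helicase-like gene, was 2.78-fold higher (edgeR adjusted p = 0.000385). ZC3HAV1, the zinc finger antiviral protein, had 93.5 and 82.6 CPM in sh60 against 116 and 126 CPM in LacZ (log2 fold change -0.46, SE 0.092, edgeR adjusted p = 0.000991), and did not pass without LacZ replicate 3 (adjusted p = 0.0795).

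Of 17 antigen presentation genes, 15 were tested, a share of 33.3% called beside 28.8% of all tested genes. Of these, 4 were higher and 1 lower, the last call being lost without either LacZ library. TAP1 (chromosome 6, 32812986 to 32821748), 1 of the 2 subunits of the pump that carries peptides to MHC class I, had 201 and 321 counts in sh60 against 70 and 36 counts in LacZ. The groups did not overlap and the level was 4.47-fold higher (log2 fold change 2.16, SE 0.20, edgeR adjusted p = 4.67e-07). TAPBP, which bridges TAP1 and MHC class I, was 2.09-fold higher (edgeR adjusted p = 3.80e-05), with 8.90 and 8.70 CPM in sh60 against 4.06 and 4.36 CPM in LacZ. HLA-B had 26.3 and 30.0 CPM in sh60 against 17.9 and 15.5 CPM in LacZ (log2 fold change 0.75, SE 0.12, edgeR adjusted p = 0.000102), and HLA-C was 1.29-fold higher (edgeR adjusted p = 0.00543). The HLA-C call was lost without LacZ replicate 1 (adjusted p = 0.0710) and without LacZ replicate 3 (0.167). The HLA, TAP1 and TAPBP genes also have copies on haplotype contigs in the files' annotation, and HLA genes resemble one another, so their levels are uncertain where reads fitted several places. TAP1 overlaps the antisense gene PSMB8-AS1. Over the 6 lists together 31 of 85 tested genes were called (36.5%), 19 higher and 12 lower, beside 28.8% of all tested genes (15.8% higher and 13.0% lower). Without LacZ replicate 3 the counts were 10 and 6, and without LacZ replicate 1 they were 14 and 7.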

How the data were processed

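The deposited values are read counts per gene, whole numbers that the authors did not normalize, per the file headers. The submitters' processing notes name STAR 2.7.6a as the aligner and hg19 as the build, and single-end reads over exons were counted with featureCounts 2.0.0 at strand setting 2, per the file headers. The command names no option for reads that fit several places or genes, which by default are left out. Gene coordinates are hg19 as in the files, 1-based.

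CPM and RPKM were computed here from TMM-scaled library sizes and the exon lengths in the files. Groups were compared in R 4.3.3 by the quasi-likelihood test of edgeR 4.0.16, with group as the only term, all 4 libraries, filterByExpr (10 counts at the median library size in 2 libraries, 16040 genes left) and Benjamini-Hochberg adjustment over all tested genes. SEs and 95% intervals are on the log2 scale. Alternatives were 3 other scalings, DESeq2 1.42.0, limma-voom (limma 3.58.1), 2 other filters, removal of GC and length trends (GC known for 94.2% of tested genes) and leaving out each library. The script was tested on simulated data. Libraries of 1 group were not copies of each other: their counts gave 17.1 (sh60) and 6.28 (LacZ) as chi-square over its degrees of freedom, over genes with 20 counts or more.

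Members and lists were chosen with earlier results of these data known. All 32 members were accounted for, and each further pathway list names up to 4 genes past the threshold with the smallest p. For the marker lists every gene past the threshold is named. The neighbours of the clusters, the APOBEC3 genes and GBP2 were named after their values were seen. Sequences are from RefSeq (GRCh38.p14), and transcripts for shared windows from GENCODE 29. No coordinates were converted between builds. Some genes counted in the lists are not reported here by name.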

Additional observations from a re-analysis of the deposited data

How the results depend on the processing

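Of the 11 called interferon-stimulated genes, 4 (TRIM22 and the 3 IFITM genes) kept their call and direction in every one of the 12 alternatives that gave a value, and 7 lost it in at least 1, each with its sign unchanged. DESeq2 gave 3 of them as higher. IFIH1 had a value in only 10 of the 12 alternatives, with none from DESeq2 or from the filter at 1 CPM. Leaving out 1 library, with the lone library assumed to vary like the other group's, gave 3 to 7 higher and 4 to 7 lower. Over all tested genes these ranges were 1331 to 2789 higher and 956 to 2697 lower, and over the other pathway lists 10 to 21 higher and 6 to 13 lower. Removing GC and length trends gave 2930 higher and 3710 lower genes, against 2540 and 2084 in the main analysis, a split of 44.1% against 54.9% higher. Leaving out 1 library gave BEND3 log2 fold changes from -0.56 to -0.36.

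The sign turned for genes that did not pass. Without LacZ replicate 3 this was IRF7 (0.044), IRF9 (-0.036), IFI16 (0.090) and IFI35 (0.33), and without LacZ replicate 1 OAS3 (0.090) and SAMHD1 (-0.041). Without sh60 replicate 1 it was IRF7 (0.069), IRF9 (-0.060), OAS3 (0.058), ISG20 (-0.099), SAMHD1 (-0.061) and IFI6 (0.26), and without sh60 replicate 2 MX1 (-0.080), IFI16 (0.097) and IFI35 (0.071). The ranges over the libraries left out end, on the other side of 0, at -0.36 for IRF7, -0.56 for IFI6, 0.13 for IRF9, -0.24 for OAS3, 0.32 for MX1, 0.31 for ISG20, 0.098 for SAMHD1, -0.19 for IFI16 and -0.46 for IFI35. SAMHD1 also turned with upper-quartile scaling (-0.012) and with GC and length trends removed (-0.068). The cause was not tested. No paired analysis was possible because the groups share only replicate number 1. With 2 libraries a group, and 1 count worth 0.0221 to 0.0333 CPM, small changes of the genes near 1 CPM could not be detected.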

Other observations

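The APOBEC3 genes are cytidine deaminases that mutate viral DNA and lie in a row on chromosome 22. APOBEC3A, APOBEC3B and APOBEC3H were too low to test. Those tested were called in both directions, where 28.8% of all tested genes were called. APOBEC3C averaged 19.1 CPM in sh60 against 14.8 CPM in LacZ (edgeR adjusted p = 0.0191), while APOBEC3D averaged 2.21 against 3.83 CPM (edgeR adjusted p = 0.00431), APOBEC3F 4.52 against 7.51 CPM (edgeR adjusted p = 0.00359) and APOBEC3G 5.55 against 9.09 CPM (edgeR adjusted p = 0.00173). APOBEC3D and APOBEC3G passed in all 12 alternatives. APOBEC3C was not called without LacZ replicate 1 (adjusted p = 0.153) or without LacZ replicate 3 (0.144), and APOBEC3F not without LacZ replicate 3 (0.0639). These genes resemble one another, so reads that fit several of them were left out. GBP2, on chromosome 1, had 23 and 17 counts in sh60 against 1 and 4 counts in LacZ, a ratio of 7.28 with an exact interval of 2.87 to 23.6 for counting error only. It entered the test only through the sh60 libraries, and its call (edgeR adjusted p = 0.00420) was lost without LacZ replicate 1 (adjusted p = 0.0699).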
